A study of Danio rerio with 4 samples.

Results

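A group of 10 transcription factor genes that respond to stress were followed in whole zebrafish larvae (*Danio rerio*) that lack normal Uhrf1 function. They are the AP-1 subunit genes *jun*, *junba*, *junbb*, *fosab*, *fosl1a* and *fosl2*, the AP-1 partner *atf3*, the C/EBP genes *cebpb* and *cebpd*, and the zinc finger gene *egr1*. The 10 genes were taken by symbol, through the RefSeq accession of each row, from a table of 15171 rows, and each symbol had 1 row. The larvae were at 5 days post fertilization (dpf). Homozygous carriers of the hi272 allele of *uhrf1*, sorted by their phenotype, were compared with siblings of normal phenotype, which the labels give as a mixture of +/+ and +/- animals, and no treatment is named for either group. There were 2 mutant and 2 sibling libraries, each of ribosome-depleted total RNA from a pool of 10 larvae.

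AP-1 is a family of dimers of Jun, Fos and ATF proteins, which bind DNA through a basic region and pair through a leucine zipper. Its members are switched on within minutes to hours of growth factor signals, wounding, infection and cellular stress, partly through the JNK, p38 and ERK kinases, and in zebrafish AP-1 factors take part in the regeneration of the fin and the heart. Atf3 is induced by many stresses and can repress or activate its targets, C/EBP factors drive acute phase and myeloid genes, and Egr1 belongs to the immediate early genes that signals induce without new protein synthesis.

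Counts assigned to genes were between 2996676 and 9100665 per library, and the deepest was mutant 1. Levels below are in CPM, counts put on a common scale for library size by TMM, and log2FC is the log2 fold change of mutant over sibling, given with its standard error (SE). With 2 libraries a group, an exact two-sided permutation test cannot give a p under 0.333, so tests are edgeR's quasi-likelihood test fitted to all 12786 genes that passed the count filter, with Benjamini-Hochberg adjusted p-values. The design text speaks of 2 clutches but does not say which library came from which, so a p-value here reflects only how much these pools varied. Siblings 1 and 2 had 21.4 and 46.8 CPM of the *uhrf1* transcript, and mutants 1 and 2 had 33.3 and 24.2 CPM. These values overlap and do not check the labels. In RNA from whole larvae, more cells of a type and more RNA per cell cannot be told apart.

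Most of the 10 genes were higher in the mutants. All 10 passed the count filter and 7 of them rose at an edgeR adjusted p under 0.05, namely *atf3*, *jun*, *junba*, *junbb*, *fosl1a*, *fosl2* and *cebpb*, while *fosab*, *cebpd* and *egr1* did not pass and none fell. Across all genes tested, 4.58% rose and 3.79% fell by the same rule. The 10 genes were chosen with earlier results of these data known. DESeq2 and limma-voom each called the same number, 7, as higher, against 4.51% and 4.22% of all genes. The median log2FC of the 10 genes was 1.60, and that of all genes tested was 0.0036. In 8 of the 10 genes each mutant library exceeded each sibling library, which held for 28.0% of all genes tested. *junba* passed the count filter only through the mutant libraries, so a gene with its sibling counts could be tested only if it was higher in mutants.

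**Figure D1:**
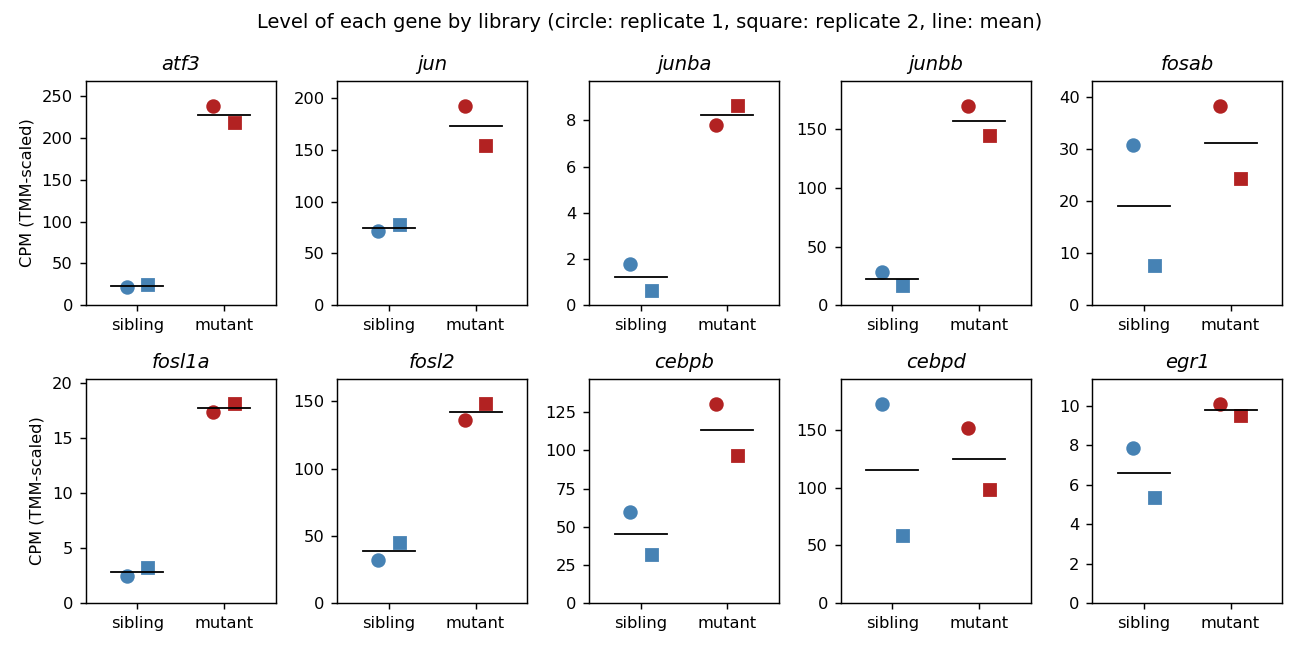
Level of each of the 10 genes in every library, in TMM-scaled CPM on linear axes from 0; circles are replicate 1, squares replicate 2, and lines group means. For *atf3* the siblings lie at 21.2 and 23.9 CPM and the mutants at 238 and 217 CPM, whereas for *fosab* and *cebpd* the 2 siblings lie far apart and the groups overlap.

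*atf3* (NM_200964) showed the largest rise of the 10 genes. Siblings 1 and 2 had 21.2 and 23.9 CPM, and mutants 1 and 2 had 238 and 217 CPM. The groups were far apart, and the higher sibling was only 1.13 times the lower one. The log2FC was 3.34 (SE 0.23, edgeR adjusted p = 4.50e-05), which is 10.1-fold with a 95% interval of 7.05 to 14.5. By size of log2FC it ranked 83 from the top among the 12786 genes tested.

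The Jun genes encode the AP-1 subunits that can pair with each other as well as with Fos and ATF proteins. *jun* (NM_199987) stood at 72.2 and 77.3 CPM in the sibling pools against 193 and 154 CPM in the mutant pools. It was therefore higher in both mutants, by a log2FC of 1.22 (SE 0.22, edgeR adjusted p = 0.00781), the smallest rise among the 7 that passed. *junbb* (NM_212750), one of the zebrafish copies of JunB, a subunit that often restrains c-Jun, went from 28.0 and 16.7 CPM to 170 and 144 CPM. Its log2FC of 2.80 (SE 0.28, edgeR adjusted p = 0.000293) was the next largest after that of *atf3*.

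*junba* (NM_213556), the other JunB copy, had few reads, with 8 and 2 counts in the siblings and 71 and 30 counts in the mutants. In CPM these were 1.80 and 0.629 in the siblings and 7.81 and 8.63 in the mutants, so both mutants again lay above both siblings. Its log2FC was 2.64, with a wide error (SE 0.54, edgeR adjusted p = 0.0136). The share of *junba* within the pair did not separate the groups. It made up 6.06% of the counts of both JunB genes in sibling 1 (exact 95% binomial interval 2.65% to 11.6%), 3.64% in sibling 2 (0.443% to 12.5%), 4.39% in mutant 1 (3.45% to 5.51%) and 5.65% in mutant 2 (3.84% to 7.97%). These intervals, which cover counting error only, overlap in all 4 libraries. How the counting treated reads shared by close copies is not given, so the split between *junba* and *junbb* is uncertain.

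Fos proteins bind DNA as partners of Jun proteins, and 2 of the 3 Fos genes passed the test. *fosl1a* (NM_001161552), which encodes the Fra-1 subunit, went from 2.48 and 3.14 CPM in the sibling pools to 17.4 and 18.1 CPM in the mutant pools. Libraries of the same group differed little, and the log2FC was 2.66 (SE 0.37, edgeR adjusted p = 0.00173). *fosl2* (NM_001082998), which encodes Fra-2, went from 32.2 and 44.6 CPM to 136 and 148 CPM, a log2FC of 1.89 (SE 0.23, edgeR adjusted p = 0.000955). Both Fra genes were higher in each mutant than in either sibling.

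*fosab* (NM_205569), a zebrafish copy of c-Fos, did not pass. Siblings 1 and 2 had 30.7 and 7.55 CPM, and mutants 1 and 2 had 38.2 and 24.2 CPM. Sibling 1 lay above mutant 2, so the groups overlapped, and sibling 1 was 4.06 times sibling 2. The log2FC was 0.69 (SE 0.48, edgeR adjusted p = 0.431), with a 95% interval from -0.39 to 1.76 that holds no change as well as a 3.40-fold rise. Without sibling 1 it became 2.06 (edgeR adjusted p = 1.36e-05), whereas leaving out sibling 2 gave 0.05 (edgeR adjusted p = 0.950).

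Of the 2 C/EBP genes, *cebpb* passed and *cebpd* did not, and the difference between them was not tested. *cebpb* (NM_131884), a regulator of acute phase, cytokine and metabolic genes, went from 59.5 and 31.1 CPM in the sibling pools to 131 and 96.0 CPM in the mutant pools. Both mutants were above both siblings, and the log2FC was 1.32 (SE 0.30, edgeR adjusted p = 0.0253). This call was lost without mutant 1, when the log2FC was 1.05 (edgeR adjusted p = 0.0878).

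*cebpd* (NM_131887), an inflammation-induced relative of *cebpb*, had levels of 173 and 57.9 CPM in siblings 1 and 2 and of 151 and 97.5 CPM in mutants 1 and 2. Both mutants lay between the 2 siblings. The log2FC was 0.11 (SE 0.42, edgeR adjusted p = 0.909), with a 95% interval from -0.82 to 1.04. Its direction rested on single libraries: the log2FC was -0.47 without sibling 2 and -0.27 without mutant 1, neither of which passed, and 1.11 without sibling 1, which did (edgeR adjusted p = 0.00310).

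*egr1* (NM_131248), the immediate early zinc finger gene, stood at 7.89 and 5.35 CPM in the sibling pools against 10.1 and 9.49 CPM in the mutant pools. Both mutants were above both siblings, but the difference was small relative to its error, with a log2FC of 0.55 (SE 0.37, edgeR adjusted p = 0.403) and a 95% interval from -0.26 to 1.37. In the RefSeq table of assembly GRCz12tu the spans of *egr1*, *junbb*, *fosl2*, *cebpb* and *fosab* each overlap that of another gene. The strand setting of the counting is not given, so reads of the overlapping stretches cannot be told apart, which bears most on the low counts of *egr1*.

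**Figure D2:**
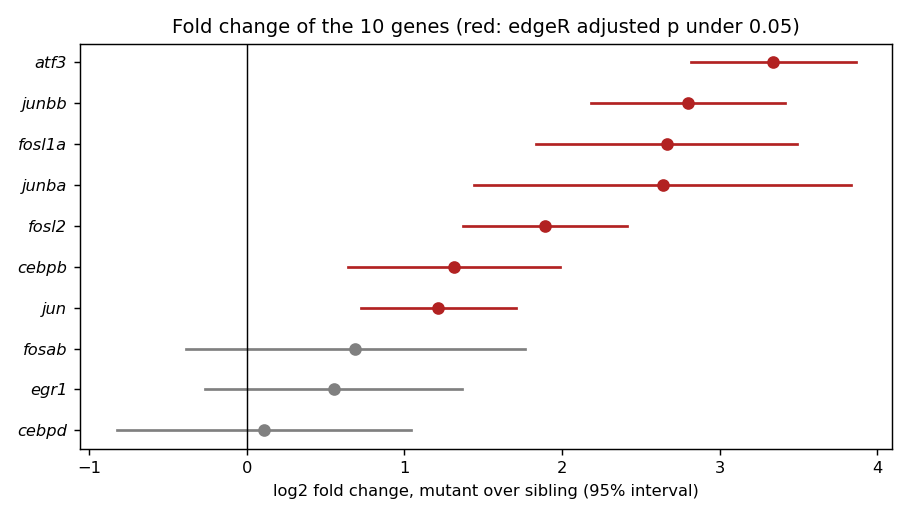
Log2 fold change of the 10 genes, mutant over sibling, with 95% intervals from the edgeR fit; red marks an adjusted p under 0.05. The intervals of 7 genes lie above 0, and those of *fosab* (-0.39 to 1.76), *egr1* (-0.26 to 1.37) and *cebpd* (-0.82 to 1.04) cross it.

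Leaving out 1 library at a time moved the genes to different degrees. The log2FC of *atf3* stayed between 3.25 and 3.42, that of *fosl1a* between 2.48 and 2.82 and that of *fosl2* between 1.66 and 2.14. For *jun* the range was 1.03 to 1.37, and for *junbb* it was 2.49 to 3.23. *junba* ranged from 2.16 without sibling 2 to 3.64 without sibling 1, when the siblings were represented by 2 counts. Of the 7 genes that rose, only *cebpb* lost its call under any of the 4 omissions, that of mutant 1. Without sibling 1, 9 of the 10 genes rose, against 5.26% of all genes tested, since *fosab* and *cebpd* then passed. Without mutant 1, 6 rose, against 4.56%, and 7 rose without sibling 2 (6.12%) or without mutant 2 (2.54%).

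**Figure D3:**
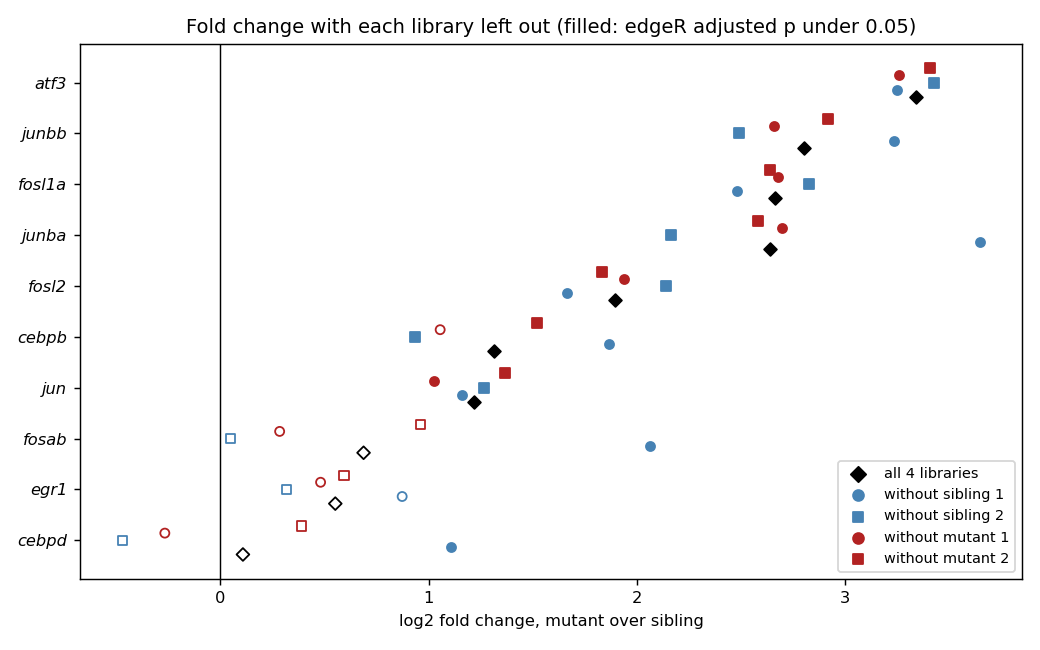
Log2 fold change of each of the 10 genes with all 4 libraries (diamonds) and with each library left out (blue, a sibling; red, a mutant; circles, replicate 1; squares, replicate 2); filled symbols passed an edgeR adjusted p of 0.05. *atf3* stays between 3.25 and 3.42, while *fosab* moves from 0.05 to 2.06 and *cebpd* from -0.47 to 1.11.

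Many other immediate early genes were, like *fosab* and *cebpd*, higher in sibling 1 than in sibling 2. Of 34 tested immediate early genes outside the 10, 29 were higher in sibling 1 than in sibling 2 and 26 were higher in mutant 1 than in mutant 2, with 23 (67.6%) higher in both. Among all genes tested 29.1% were higher in both libraries numbered 1. Of the 10 genes 5 were, namely *fosab*, *cebpd*, *cebpb*, *junbb* and *egr1*, so genes that passed the test share this spread. At least 2-fold higher levels in sibling 1 (CPM plus 0.5) were seen for 7 of the 34 (20.6%) and for 3.43% of all genes tested. One of them, chosen after its values were seen, was *gadd45ba*, a stress-induced growth arrest gene, with 110 and 21.1 CPM in siblings 1 and 2 and 115 and 75.3 CPM in mutants 1 and 2. Lists of skeletal muscle and skin keratinocyte markers were also higher in both libraries numbered 1 for 11 of 16 and 9 of 12 genes. Both libraries numbered 1 also held more counts than those numbered 2, with 4981004 against 2996676 in siblings and 9100665 against 3299449 in mutants. Whether a number stands for a clutch is not stated, and the parts of depth and tissue makeup in this spread were not tested.

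**Figure D4:**
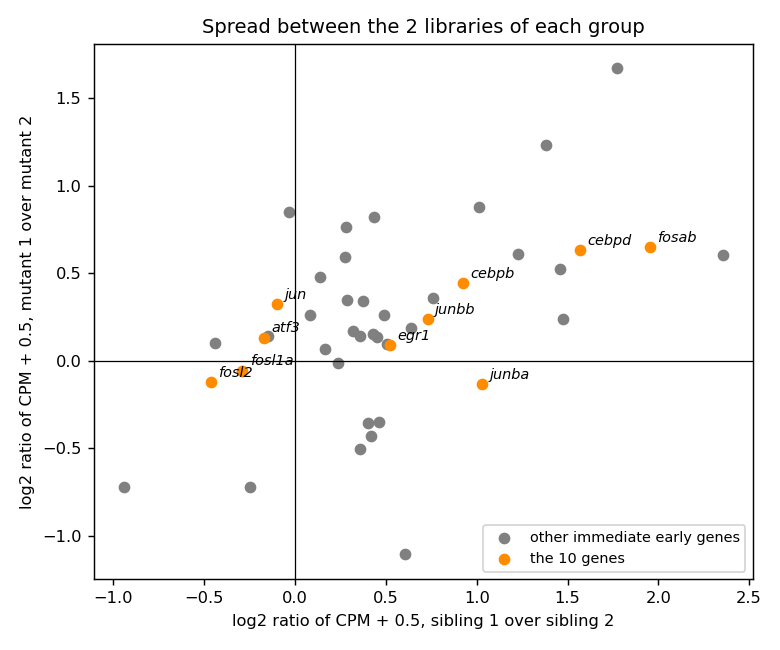
Log2 ratio of CPM plus 0.5 between sibling 1 and sibling 2 (horizontal) and between mutant 1 and mutant 2 (vertical) for the 10 genes (orange) and for 34 other immediate early genes (grey). 23 of the 34 grey points lie above 0 on both axes, as do *fosab*, *cebpd*, *cebpb*, *junbb* and *egr1*. *fosl1a* and *fosl2* lie near or below 0 on both axes.

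Of 44 other immediate early genes listed, 34 were tested, and none rose with edgeR fitted without a block or with limma-voom, while DESeq2 called 1, *ier2a*, as higher. At an unadjusted edgeR p under 0.05, 4 of the 34 were higher, against 1593 of all 12786 genes tested. The list's median log2FC was 0.26. EdgeR and DESeq2 called 4.58% and 4.51% of all genes tested as higher. *ier2a*, an early response gene, went from 37.4 and 15.7 CPM to 74.0 and 48.3 CPM (log2FC 1.19, SE 0.36, edgeR adjusted p = 0.0750, DESeq2 adjusted p = 0.0447). Among other edgeR fits with no replicate block it also passed with library totals alone, with no count filter, without sibling 1 and without mutant 2. The 1 call of edgeR in this list was a fall. *klf2b*, a Krüppel-like factor gene tied to blood flow and skin, went from 108 and 79.5 CPM to 52.3 and 29.3 CPM (log2FC -1.17, SE 0.29, edgeR adjusted p = 0.0330), a call lost without mutant 2 (edgeR adjusted p = 0.204). Without sibling 1, 5 immediate early genes rose, against 5.26% of all genes.

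None of the remaining AP-1 relatives that could be tested passed. Of 18 other Jun, Fos, Jdp2, Batf, small Maf and Bach genes listed, 10 were matched and 8 tested. No other Fos gene was matched, and the matched Batf genes had too few counts to be tested. The 8 are therefore *jund*, *jdp2b* and small Maf and Bach genes. DESeq2 and limma-voom, like edgeR, called 0 of the 8. Of these 8, 0 had an unadjusted edgeR p under 0.05, against 2977 of all 12786 genes tested. Of all genes tested, edgeR called 4.58% as higher and 3.79% as lower. *jund*, the Jun gene that is expressed most steadily in many tissues, stood at 30.4 and 30.8 CPM in the sibling pools against 37.1 and 37.7 CPM in the mutant pools (log2FC 0.29, SE 0.22). The lowest p was that of *jdp2b*, a repressor that pairs with Jun, at 7.67 and 4.09 CPM against 11.8 and 8.63 CPM (log2FC 0.79, SE 0.41, edgeR adjusted p = 0.281).

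With a median log2FC of 0.25, 3 of 20 other ATF and CREB family genes tested rose, against 4.58% of all genes, and none fell. These 3 regulate the responses to unfolded proteins and to translational stress. *xbp1* went from 124 and 113 CPM to 257 and 287 CPM (log2FC 1.196, SE 0.23, edgeR adjusted p = 0.0101), and *atf6* from 22.8 and 19.8 CPM to 38.3 and 52.9 CPM (1.08, SE 0.25, edgeR adjusted p = 0.0276). *atf4b*, a translation-controlled stress factor that in mammals induces *Atf3*, went from 40.4 and 45.9 CPM to 68.1 and 86.3 CPM (0.84, SE 0.22, edgeR adjusted p = 0.0450). The *atf4b* call was lost with DESeq2 (adjusted p = 0.0719), with limma-voom (adjusted p = 0.0506), with library totals alone (edgeR adjusted p = 0.0563) and without sibling 1 (edgeR adjusted p = 0.0971). All 3 calls were lost in edgeR without mutant 2, when the log2FC was 1.11 for *xbp1*, 0.84 for *atf6* and 0.66 for *atf4b*. The other copy, *atf4a*, did not pass, with 121 and 108 CPM against 146 and 124 CPM (log2FC 0.23, SE 0.21).

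Another 4 genes tested, *cebpa*, *cebpg*, *cebpz* and *ddit3*, were listed for a C/EBP name or kinship, and a shared name need not mean a shared family. DESeq2 called 2 of the 4 as higher, against 4.51% of all genes. With edgeR, 3 (*cebpg*, *cebpz* and *ddit3*) were higher at an unadjusted p under 0.05, as were 1593 of all 12786 genes tested. Only 1, *ddit3*, was called higher, against 4.58% of all genes. It encodes CHOP, a C/EBP relative induced by endoplasmic reticulum stress, and went from 45.8 and 40.6 CPM to 95.2 and 123 CPM (log2FC 1.33, SE 0.22, edgeR adjusted p = 0.00501). *cebpa*, the C/EBP gene of differentiated liver and myeloid cells, had overlapping groups, with 35.2 and 19.8 CPM in siblings 1 and 2 and 25.3 and 30.8 CPM in mutants 1 and 2 (log2FC 0.0028, SE 0.30). *cebpg* went from 165.5 and 147 CPM to 280 and 256 CPM but did not pass with edgeR (log2FC 0.78, SE 0.23, edgeR adjusted p = 0.0674). The granulocyte gene *cebp1* had at most 4 counts in any library and was not tested.

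Of 25 tested genes for the JNK, p38 and ERK kinase cascades and their SRF and TCF nuclear targets, 1 rose and none fell. Of all genes tested 4.58% rose and 3.79% fell, and the list's median log2FC was 0.16. The gene that rose was *mapk14a*, which encodes a p38 kinase. It went from 49.4 and 48.7 CPM to 124 and 130 CPM (log2FC 1.37, SE 0.20, edgeR adjusted p = 0.00245). Kinase activity is not measured by transcript counts.

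Of 21 tested genes known in mammals as AP-1 targets, 10 rose and none fell, against 4.58% and 3.79% of all genes tested. The list's median log2FC was 0.74, and the list was drawn up with earlier results of these data known. The 10 hold *mmp13a* and the cytokine gene *il1b* (8 and 7 counts in the siblings, 127 and 27 in the mutants), which passed the count filter only through the mutants and so had to be higher there to be tested. The *il1b* call was lost when mutant 1 was left out (edgeR adjusted p = 0.0971). *mmp9*, a matrix metalloproteinase gene, went from 17.1 and 25.5 CPM to 204 and 189 CPM (log2FC 3.22, SE 0.26, edgeR adjusted p = 0.000105). *timp2b*, which encodes an inhibitor of such proteinases, rose by a log2FC of 2.46 (SE 0.25), and the cytokine gene *tgfb1a* by 1.50 (SE 0.21).

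Of 16 tested genes known in mammals as C/EBP targets, 9 rose and 1 fell, against 4.58% and 3.79% of all genes tested. The list's median log2FC was 1.42, and this list too was drawn up with earlier results of these data known. Fewer of its genes rose without mutant 1 or without mutant 2, when the median log2FC was 1.33 and 1.25. *socs3b*, a feedback inhibitor of cytokine signalling, went from 51.9 and 51.6 CPM to 276 and 143 CPM (log2FC 2.03, SE 0.31, edgeR adjusted p = 0.00288). The fibrinogen genes *fga* and *fgb* rose by 1.82 (SE 0.30) and 1.58 (SE 0.27) on the log2 scale, and the complement gene *c3a.2* by 2.22 (SE 0.40), with mutant 2 higher than mutant 1 for these 3. *serpina1*, the antitrypsin gene of the liver, fell from 234 and 171 CPM to 81.8 and 102 CPM, a call lost without mutant 1 or without mutant 2 (edgeR adjusted p = 0.109 and 0.0567). The acute phase gene *hamp*, which had 2 rows, had no counts in any library. The handling of reads shared by rows of 1 gene is not given, so this does not show that it was absent.

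The amino acid branch of the integrated stress response, which Atf4 drives, moved in both directions. Of 16 genes tested, 4 rose and 2 fell, against 4.58% and 3.79% of all genes tested, and the median log2FC was 0.36. *sesn2*, a stress sensor that restrains growth signalling, went from 10.4 and 5.03 CPM to 34.6 and 54.6 CPM (log2FC 2.47, SE 0.37, edgeR adjusted p = 0.00246). The serine synthesis gene *phgdh* rose by 1.25 (SE 0.22) and the mitochondrial folate enzyme gene *mthfd2* by 1.70 (SE 0.41). The amino acid transporter gene *slc3a2a* fell from 258 and 196 CPM to 115 and 111 CPM. The other 2 calls, named after their values were seen, were a rise of the asparagine synthetase gene *asns* (1.196, SE 0.30) and a fall of the stress protein gene *nupr1b* (-1.14, SE 0.29). Without mutant 2 the calls of *mthfd2*, *asns*, *slc3a2a* and *nupr1b* were lost, with log2FC of 1.57, 1.01, -0.99 and -0.90. The calls of *asns* and *nupr1b* were lost also without sibling 1, that of *slc3a2a* without mutant 1 and that of *nupr1b* with limma-voom.

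Of the markers of cells that use these factors, some of neutrophils rose, and those of macrophages moved in both directions. The summed level of 9 neutrophil markers was 70.3 and 72.0 CPM in the sibling pools and 154 and 160 CPM in the mutant pools. Most of this gain lay in the 3 markers called higher, so the sum does not show a like rise of the whole list. The median log2FC of the 7 tested was 0.55, and 1 of the 9 was lower in both mutants than in both siblings. Of 7 tested, 3 rose, where 4.58% of all genes tested rose and 3.79% fell. These were *mpx*, the myeloperoxidase gene (log2FC 2.22, SE 0.24), the oxidase subunit gene *cyba* (1.29, SE 0.27) and *mmp13a* (2.64, SE 0.55). The last is also among the AP-1 targets. With 4 and 3 counts in the siblings and 56 and 19 in the mutants, *mmp13a* passed the count filter only through the mutants, so it could be tested only if it was higher there. The defining neutrophil gene *npsn*, which had 2 rows, had no counts in any library. How reads shared by rows of 1 gene were counted is not given, so this does not show that it was absent. Without mutant 1 the calls of *cyba* and *mmp13a* were lost, with log2FC of 1.06 and 2.51. Summed, 8 macrophage and leukocyte markers had 111 and 108 CPM in the sibling pools and 136 and 149 CPM in the mutant pools. *mpeg1.2*, the 1 marker of this list called higher, went from 20.1 and 25.5 CPM to 93.9 and 95.5 CPM (log2FC 2.06, SE 0.23). That gain was larger than the gain of the sum. Of 7 tested markers in this list, 2 had a log2FC above 0, and the median log2FC was -0.43. Falls were called for *coro1a* (-1.62, SE 0.34), except without mutant 2 (edgeR adjusted p = 0.0741), and for *mpeg1.1* (-1.58, SE 0.31), except without mutant 1 (edgeR adjusted p = 0.0688). None of the markers in this list was at 0 in every library. The part of leukocyte numbers in the rise of *atf3*, the AP-1 genes and *cebpb* was not tested.

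Marker genes of liver, skin, muscle and brain were detected, the tissue named being whole larvae. Of 12 hepatocyte markers 1 rose and 3 fell, against 4.58% and 3.79% of all genes tested. The list's median log2FC was -1.11, and only 1 of the 12 markers had a log2FC above 0. Their summed level was 8556 and 7015 CPM in the sibling pools and 4719 and 5786 CPM in the mutant pools. The part of hepatocytes in the values of *cebpb*, *cebpd* and the liver-made C/EBP targets was not tested. *uox*, the urate oxidase gene, and *ttr*, the transthyretin gene, fell by 2.91 (SE 0.31) and 2.27 (SE 0.36) on the log2 scale. The remaining fall was that of *serpina1*, which is also among the C/EBP targets above. *cp*, the ceruloplasmin gene, rose by 1.17 (SE 0.26). Of 12 keratinocyte markers 1 rose, the claudin gene *cldne* (1.15, SE 0.25), and 3 keratin genes fell, *krt92*, *krt97* and *cyt1l*, with log2FC of -1.88, -1.64 and -1.60. Without mutant 2 the calls of *cp*, *cldne*, *krt97* and *cyt1l* were lost, and that of *cyt1l* also without mutant 1. No marker among 16 of muscle or 12 of neurons passed with edgeR fitted without a block or with limma-voom. Of these markers, 0 and 2 had an unadjusted edgeR p under 0.05, against 2977 of all 12786 genes tested. DESeq2 called 1 of these markers, the neuronal gene *stmn1b*, as lower (adjusted p = 0.0368). The lowest p among muscle markers was that of *myhz1.1* (log2FC 0.85, SE 0.45).

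**Figure D5:**
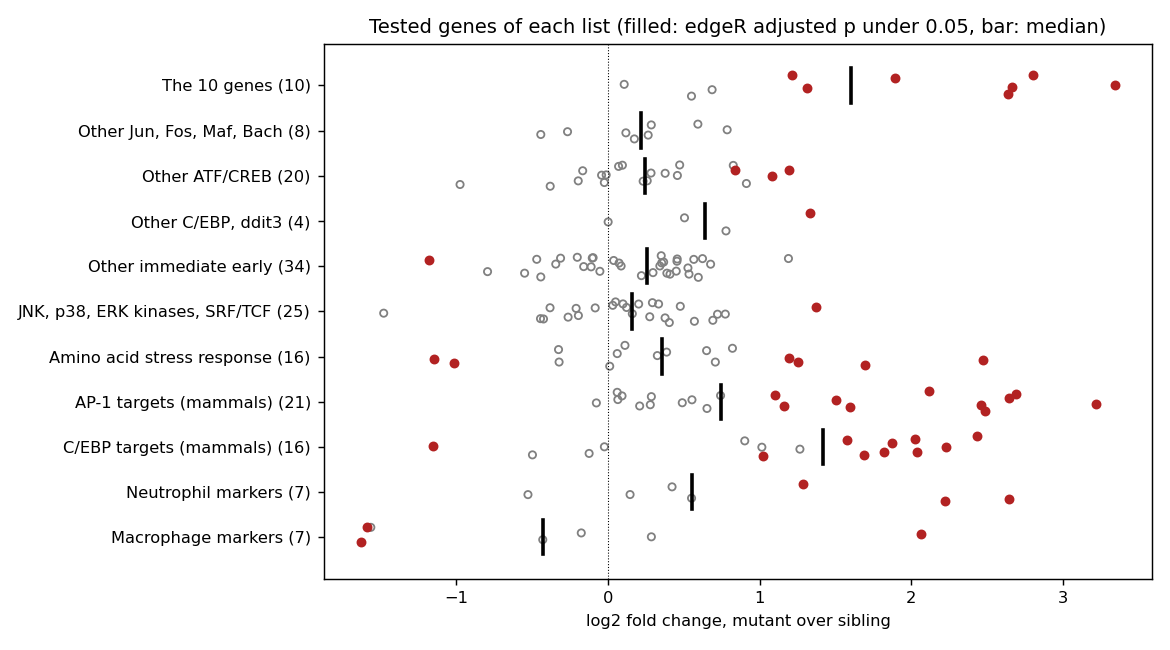
Log2 fold change, mutant over sibling, of every tested gene of each list (number tested in brackets); filled red points passed an edgeR adjusted p of 0.05 and black bars are list medians. The medians are 1.60 for the 10 genes, 0.74 for AP-1 targets and 1.42 for C/EBP targets. They are 0.26 for other immediate early genes and 0.22 for other AP-1 relatives, mostly small Maf and Bach genes.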

How the data were processed

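The deposited table holds raw counts per RefSeq accession, per the file headers and values. Its columns headed WT were taken as the siblings, which the series title calls WT, by their number. Bowtie2 2.1.0, HTSeq, DESeq2 and the build GRCz10 are named in the submitters' processing notes without roles, and the annotation, strand setting and handling of reads with several matches were not given. Accessions were matched to symbols through a RefSeq table of assembly GRCz12tu (14472 of 15171 rows), which was also used to see which genes overlap. Of 304 list entries, 240 were matched.

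The fit used edgeR 4.0.16 in R 4.3.3 (filterByExpr, TMM, glmQLFit, glmQLFTest, no block), with p adjusted over all 12786 genes tested and a threshold of 0.05. SE is the size of the log2 fold change divided by the square root of F. One count was worth between 0.110 and 0.314 CPM. Alternatives were DESeq2 1.42.0, limma-voom (limma 3.58.1), other scalings and filters, summed rows, the replicate number as a block, and leaving out each library. Tested on simulated data, the fit gave more false calls than the threshold allows for and missed many changes near 2-fold. Replicates differed by more than sampling noise (chi-square per degree of freedom of 15.7 for siblings and 13.6 for mutants).

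The 10 genes and the lists were chosen with earlier results of these data known. Named genes were *uhrf1*, the 10 genes, up to 4 called genes of lowest p per list (the gene of lowest p where none was called) and the 5 genes most like *atf3*. Exceptions are marked. *jund*, *atf4a*, *cebpa*, *cebpg*, *cebpz*, *cebp1*, *ier2a*, *il1b*, *hamp* and *npsn* were also added after their values were seen. One gene that the rule names is not reported here.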

Additional observations from a re-analysis of the deposited data

How the results depend on the processing

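The direction and call of *atf3*, *jun*, *junbb*, *fosl1a* and *fosl2* held under each of the 12 alternatives run, and those of *junba* under the 11 in which it was tested. With at least 50 counts asked for in 2 libraries, *junba* and *egr1* were not tested. *fosl1a*, with 11 and 10 counts in the siblings and 158 and 63 in the mutants, met that filter only through the mutants. Under that filter *fosl1a* could therefore be tested only if it was higher in mutants. *cebpb* kept its call in 11 of 12, and *egr1* passed in none of its 11. The log2 fold change of *cebpd* ran from -0.47 to 1.11 and that of *uhrf1*, -0.21 with all libraries, from -0.69 to 0.44. For *gadd45ba* it ran from -0.20 to 2.18, and for *cebpa* from -0.34 to 0.48, with -0.0059 under the size factors of DESeq2 in edgeR. Leaving out 1 library gave 333 to 805 genes higher and 243 to 754 lower in place of 585 and 485, and 6 to 9 of the 10 genes. With 1 library left in a group, that library was assumed to vary like the other group. Same-numbered deviations correlated at 0.24, but with 2 pairs the samples share only a number. With the replicate block, 1366 genes were higher and 1165 lower, and *fosab* passed (log2 fold change 0.82, edgeR adjusted p = 0.0263) while *cebpd* and *egr1* did not. Of the 34 other immediate early genes tested, 4 then rose and 2 fell, against 1366 and 1165 of all 12786 genes tested. Among those higher were *ier2a* (edgeR adjusted p = 3.41e-05) and *gadd45ba* (edgeR adjusted p = 0.0130). The neuronal *stmn1b* was lower (log2 fold change -0.86, edgeR adjusted p = 0.0109). At 8 and 2 sibling counts, depth limits *junba* most.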

Other observations

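The share of *cebpd* within the counts of *cebpb* and *cebpd* was 74.4% in sibling 1 (exact 95% binomial interval 71.6% to 77.0%), 65.0% in sibling 2 (59.1% to 70.6%), 53.7% in mutant 1 (51.7% to 55.6%) and 50.4% in mutant 2 (46.5% to 54.2%). Both mutants lay below both siblings in this share, although the level of *cebpd* alone overlapped between the groups. The share of *atf3* within the counts of *atf3* and *jun* was 22.7% and 23.6% in siblings 1 and 2 and 55.3% and 58.6% in mutants 1 and 2. The pairs were chosen after the levels were seen, and the intervals cover counting error only.

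Across the 4 libraries, the 5 genes whose log2 CPM, centred on its mean, differed least from that of *atf3* were *sult5a1*, *txnb*, *mmp9*, *plac8.2* and *sele*, among 10710 genes that averaged 5 CPM or more and whose symbol is not a clone name. Their root mean square differences from *atf3* were 0.036, 0.083, 0.15, 0.15 and 0.19 on the log2 scale. *txnb*, a thioredoxin gene, had 33.4 and 37.4 CPM in siblings 1 and 2 against 406 and 388 CPM in mutants 1 and 2. *sult5a1*, a sulfotransferase gene, had 4.51 and 5.35 CPM against 56.5 and 52.6 CPM. *sele*, the gene of the adhesion molecule E-selectin, had 7.22 and 9.43 CPM against 69.9 and 64.7 CPM. *plac8.2* had 0.676 and 0.943 CPM against 12.8 and 8.91 CPM. With 3 and 3 counts in the siblings, *plac8.2* passed the count filter and the cut of 5 CPM only through the mutants. It could therefore be compared with *atf3* only if it was higher there. Among the other 9 transcription factor genes, *junbb* (0.40) and *fosl1a* (0.41) were nearest to *atf3* by this measure and *cebpd* (1.65) the farthest. With 4 libraries in 2 groups, the measure mostly reads the size of the group difference.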
